A study of Mus musculus with 24 samples.

Results

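LOC gene models are the genes of the deposited table whose id is LOC followed by digits only. Of 13998 genes in the table, 109 were LOC models. They were measured in the hypothalamus of 24 male F2 mice by SAGE-Seq, which counts a short sequence tag cut from near the 3′ end of the RNA. The 2 groups were 12 *cast/cast* and 12 *b6/b6* mice, which carried CAST/EiJ or C57BL/6J alleles on both copies of a proximal segment of chromosome 17 (the CAST segment) and had *b6/b6* alleles everywhere else. All were fed the choice of carbohydrate/protein and fat/protein diets, with tissue taken after the diets were offered again. The age of each mouse is not given in the labels. The *cast/cast* mice had been chosen for the highest and the *b6/b6* mice for the lowest intake of carbohydrate kcal, so genotype and intake cannot be told apart in these mice. Each library came from 1 mouse and held 7754202 to 13082873 tag hits in the *b6/b6* and 9237614 to 12078078 in the *cast/cast* mice. By the correlation of its log2 values with the median profile of its genotype, 4 mice stood apart from the rest (r under 0.95, 2 of each genotype). Their r ran from 0.892 to 0.944, and the next lowest was 0.954. All 4 had colony numbers under 25000, and they include both *cast/cast* mice so numbered. Values without them are given beside the results they moved most.

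A LOC id is the provisional name that the NCBI annotation gives to a gene without an official symbol, the digits being the gene's number in that database. Such models include long noncoding RNAs, pseudogenes, near copies of known genes and predictions that later annotations drop or rename. In SAGE, transcripts are cut at the sequence CATG, and the tag begins at the CATG site nearest the 3′ end. Tags were matched to reference mRNAs, so a tag from a CAST allele is counted for a gene only where it still matches that gene, and a base change can add or remove a CATG site or make a tag match another gene's entry.

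Most LOC models could not be placed on the genome. Only 16 of the 109 had a single position, 2 from the deposited table and 14 from the RefSeq annotation of GRCm38, and 93 had none. In all, 245 genes of the table lacked a position, and LOC models made up 38.0% of them. RefSeq now lists 15 of the LOC models under another symbol. Examples are *LOC329427*, now *Chn1os3*, a noncoding transcript on chromosome 2, *LOC433944*, now *Tbx3os2*, on chromosome 5, and *LOC100504703*, now *A730063M14Rik*, on chromosome 10.

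GENCODE transcripts gave a tag for 9 LOC models. The 4 tags below were chosen to show how far a tag can point to 1 gene, from a tag found in no other gene to one found in many. Capitals mark the CATG site, and each tag is written 5′ to 3′ as the transcript reads.
LOC329427: CATGataacctcgaatgctgggaagac
LOC100504703: CATGacgcaaagtgggggcgagtctgg
LOC100642166: CATGtgtcctggtactttaaaagaaaa
LOC100044193: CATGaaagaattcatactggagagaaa

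The tags of *LOC329427* and *LOC100504703* had no match within 2 mismatches in a transcript of any other gene. The tag of *LOC100642166* (now *Gm15446*, on chromosome 5) was also found, letter for letter, in *Zfp932*, a zinc finger gene. For *LOC100044193* (now *Gm20939*, on chromosome 17 beyond the CAST segment), 3 transcripts gave 3 tags, and the one printed was present in 34 other genes and within 2 mismatches in 73 more. One of the 34 genes with the same sequence, *Zfp763*, lies in the CAST segment, as do 15 of the 73. Transcripts were searched at every CATG site, not only the one nearest the 3′ end. The genes with a match therefore need not yield that tag in SAGE. None of the other 8 LOC models had a tag shared with, or within 2 mismatches of, a gene of the CAST segment. Of the 9, 3 had a tag whose sequence another gene also held at some CATG site, and 5 had no other gene within 2 mismatches for any of their tags. The 4 models that were called between genotypes, described next, were not among these 9, so their tags were not analysed here.

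Of the 109 LOC models, 3 were higher and 1 was lower in *cast/cast* mice. The higher ones were *LOC641240*, *LOC674595* and *LOC101055787*, and the lower one was *LOC628205*, none of which has a position or a known role that can be stated here. A gene was called when its unadjusted limma *P* was at most 0.01 and its mean normalized counts differed at least 1.5-fold. By this rule 0.471% of all genes tested were higher and 1.01% were lower. The 3 higher models of 109 lay above the share of higher genes, and the 1 lower model was close to the share of lower genes. The LOC set was chosen, and these 3 models named, with earlier results of these data known, so their count is a description only. Their *b6/b6* means were 0, 0.961 and 1.73, so they reached the minimum mean of 5 used for testing only through the *cast/cast* mice, where they were high. All 4 models with a *P* of at most 0.01 also passed the fold threshold, and 2.04% of all genes had such a *P*. The adjusted *P* (Benjamini-Hochberg over all genes, limma) was at most 0.05 for 3 models, compared with 0.572% of all genes. In tissue RNA, fewer cells of a type and less RNA per cell cannot be told apart.

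*LOC641240* was detected in *cast/cast* mice only. All 12 *b6/b6* libraries held 0 tag hits for it, which allows up to 3 hits in a library by counting error alone. In *cast/cast* mice the normalized count was 15.5 at the lowest, 43.0 at the median and 70.0 at the highest, from 17 to 65 tag hits. The genotypes did not overlap, and the *cast/cast* mean of 42.5 ± 14.4 (SD, n = 12) was at least 14.5-fold higher than the level that 3 hits in every *b6/b6* library would give. The log2 fold change was 5.36 ± 0.22 (SE, adjusted *P* = 2.7e-16 with limma, on the scale of log2(normalized count + 1)), higher in 12 of 12 *cast/cast* mice. No other gene of the 13998 was at 0 in all mice of a genotype.

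*LOC674595* was nearly absent from *b6/b6* mice and variable in *cast/cast* mice. In *b6/b6* mice its lowest and median values were both 0 and its highest was 3.69, and 7 of the 12 libraries held no hit. In *cast/cast* mice it ran from 3.23 through a median of 20.2 to 52.1. The ranges overlapped slightly, since the lowest *cast/cast* mouse, with 3 tag hits, was below the highest *b6/b6* mouse, with 4. Means were 24.5 ± 16.8 for *cast/cast* and 0.961 ± 1.35 for *b6/b6* mice (SD, n = 12), and the log2 fold change was 3.66 ± 0.41 (SE, adjusted *P* = 4.6e-07, limma).

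*LOC101055787* was the weakest of the higher models. Its lowest, median and highest values were 0, 1.72 and 3.86 in *b6/b6* mice and 4.15, 10.4 and 21.6 in *cast/cast* mice. The genotypes did not overlap, but the lowest *cast/cast* value came from 4 tag hits and the highest *b6/b6* value also from 4. Its log2 fold change was 2.26 ± 0.31 (SE, adjusted *P* = 2.5e-05, limma), with means of 11.9 ± 5.54 for *cast/cast* and 1.73 ± 1.24 for *b6/b6* mice (SD, n = 12 each).

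*LOC628205* was expressed in both genotypes and moderately lower in *cast/cast* mice. The values were 19.6, 47.2 and 84.8 (lowest, median, highest) in the *b6/b6* and 13.3, 30.5 and 45.3 in the *cast/cast* mice, so the ranges overlapped from 19.6 to 45.3. The ratio of means was 1.61-fold, which made it the LOC model nearest to the fold threshold among those with a *P* of at most 0.01, and none with such a *P* lay just outside it. The log2 fold change of -0.70 ± 0.22 (SE, unadjusted *P* = 0.00406) did not pass the correction over all genes (adjusted *P* = 0.335, limma). It was not called among mice with colony numbers in the 25000s (-0.86, unadjusted *P* = 0.0332).

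**Figure D1:**
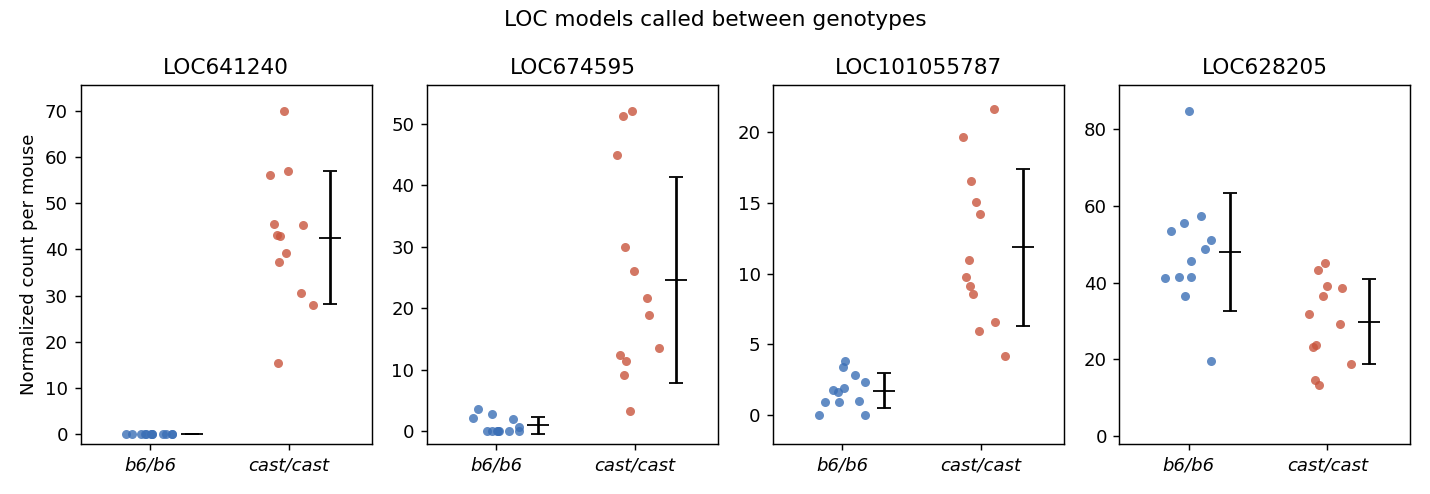
Normalized count per mouse of the 4 called LOC models in *b6/b6* and *cast/cast* mice, each point 1 mouse and the bars mean ± SD (n = 12). *LOC641240* is at 0 in all *b6/b6* mice and from 15.5 to 70.0 in *cast/cast* mice, whereas the *LOC628205* ranges overlap from 19.6 to 45.3.

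The 3 higher models kept their pattern within neighbouring colony numbers, which the labels give for each mouse. Of mice numbered in the 25000s, 3 were *b6/b6* and 9 *cast/cast*. There *LOC641240* was 0 in the 3 *b6/b6* and at least 15.5 in the 9 *cast/cast* mice, and *LOC101055787* reached 1.94 and began at 5.98. *LOC674595* ran up to 3.69 in the 3 *b6/b6* mice and from 3.23 to 52.1 in the others. Without the 4 mice that stood apart the same 3 models were called higher and the same 1 lower.

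Among genes with a position, those whose genotypes did not overlap were all on the CAST segment. Over all genes, 8 were higher in *cast/cast* without overlap of the genotypes (0.0572% of genes tested), of which 5 were in the segment, 0 elsewhere on the genome and 3 without a position. Those 3 were *LOC641240*, *LOC101055787* and *C530047H08Rik*, which ran from 4.91 to 19.6 in the *b6/b6* and 23.4 to 52.8 in the *cast/cast* mice. In the other direction 39 genes were lower without overlap (0.279% of genes tested), and all 39 were in the segment, which holds 429 genes of the table. No LOC model was among the 39. The names of these genes were listed after their values were seen.

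The mirror image of *LOC641240*, a gene above 3 tag hits in every mouse of 1 genotype and in no mouse of the other, was seen 3 times. Each time the loss was in *cast/cast*. *AA388235*, *Gm10505* and *Nthl1* were above 3 tag hits in every *b6/b6* mouse and in no *cast/cast* mouse, and all 3 are in the CAST segment. *Nthl1*, which encodes a DNA glycosylase of base excision repair, averaged 69.3 ± 15.1 in the *b6/b6* and 1.53 ± 1.38 in the *cast/cast* mice. *AA388235* averaged 54.9 ± 16.7 and 0.157 ± 0.545, and *Gm10505* 16.7 ± 6.42 and 0.350 ± 0.827. Other segment genes were also near 0 in *cast/cast* mice but missed this rule. Examples are *D730048J04Rik* (means of 40.8 and 0.616), *H2-Aa* (125.9 and 1.19) and *H2-Q4* (26.9 and 1.28), each with 1 *cast/cast* mouse above 3 tag hits. In the reverse direction *LOC641240* was the one gene above 3 tag hits in every *cast/cast* mouse and in no *b6/b6* mouse.

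**Figure D2:**
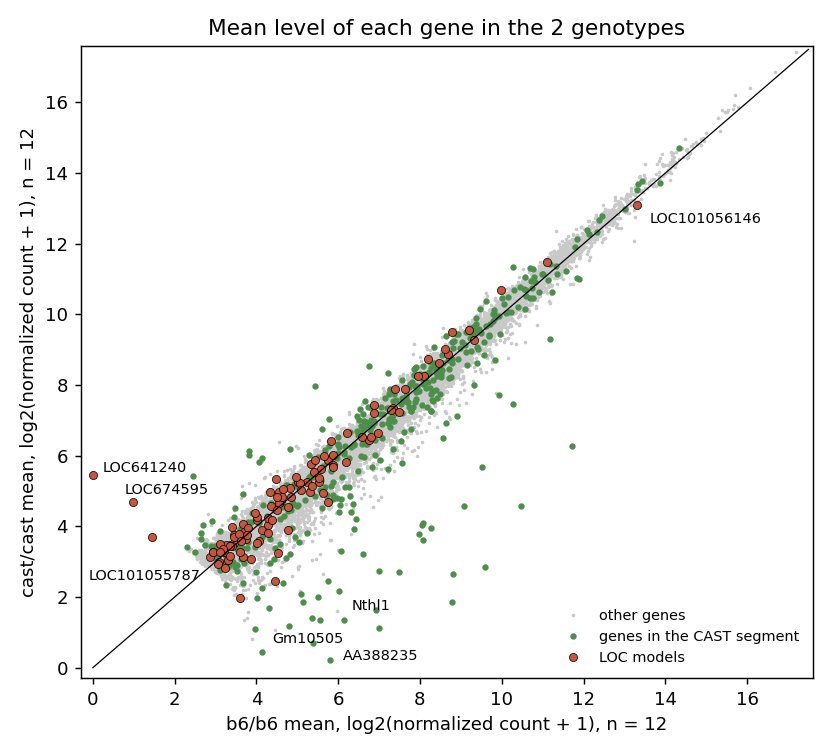
Mean of each gene in *b6/b6* (x axis) and *cast/cast* mice (y axis), as log2(mean normalized count + 1), n = 12 each, with LOC models in red, other genes of the CAST segment in green and all others in grey, and the diagonal marking equal means. *LOC641240*, *LOC674595* and *LOC101055787* lie at the left edge above the diagonal, while the green points lie on both sides of it.

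The tags gained by the 3 higher LOC models were few next to those lost in the segment. Mean normalized counts rose by 42.5 for *LOC641240*, 23.6 for *LOC674595* and 10.1 for *LOC101055787*, 76.2 in all. The means of the 39 segment genes that were lower without overlap fell by 16.3 (*Gm10505*) to 3300.0 (*Mapk8ip3*), with a median fall of 158.7, so the 3 gains came to 0.568% of these losses. Of the 39, 31 fell by at least the gain of *LOC641240*. Both groups of genes were picked by these same values, so the share and this count only describe the sizes and do not show where any tags went. The summed count of all 429 segment genes was 253700 ± 27860 (SD, n = 12) in the *b6/b6* and 257500 ± 28040 in the *cast/cast* mice, a difference smaller than the spread. Whether the tags of the 3 models came from CAST alleles of segment genes that matched another entry was not tested, since their sequences were not used here.

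The 1 LOC model known to lie in the CAST segment did not differ between genotypes by the call rule. *LOC106740* is at chr17:14947736-14948823 (GRCm38, minus strand), within the span of *Phf10*, a subunit gene of a chromatin remodelling complex on the same strand. Its lowest, median and highest values were 21.5, 29.7 and 50.7 in the *b6/b6* and 8.31, 36.0 and 41.9 in the *cast/cast* mice. The ranges overlapped and the log2 fold change was -0.11 ± 0.22 (SE, adjusted *P* = 0.894, limma), and 0.11 without the 4 mice that stood apart. *Phf10* itself averaged 133.7 ± 37.8 and 119.1 ± 21.9 (log2 fold change -0.14 ± 0.14). As the spans overlap on 1 strand, tags of the 2 genes may be counted for either.

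None of the 16 LOC models with a position was called with limma, and 1 of them, *LOC101056072* (*Gm29773*, chromosome 8), had an unadjusted *P* of at most 0.05. It averaged 436.0 ± 234.1 in the *b6/b6* and 720.2 ± 383.7 in the *cast/cast* mice, with a log2 fold change of 0.94 ± 0.45 (adjusted *P* = 0.608, limma). With edgeR and with DESeq2 1 of the 16 was called, *LOC329427*, which is described below.

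Genes without a position, whatever the form of their id, were called mostly higher, as were Gm and Rik models placed outside the CAST segment. Among the 93 LOC models without one, 3 were higher and 1 lower; among 69 Gm models the counts were 2 and 0, among 49 Rik models 2 and 0, and among 34 other genes 1 and 0. That made 3.67% called of the 245 genes without a position, against 24.5% in the CAST segment (25 higher and 80 lower of 429) and 0.706% elsewhere (33 higher and 61 lower of 13324). Within the segment, 3 of 6 Gm, 9 of 34 Rik, 7 of 14 H2- (major histocompatibility) and 11 of 34 Zfp (zinc finger) genes were called. Elsewhere, 3 of 250 Gm (3 higher, 0 lower), 15 of 856 Rik (11 higher, 4 lower) and 1 of 293 Zfp genes (1 higher, 0 lower) were. Median log2 fold changes of these Gm and Rik models were 0.12 and 0.06. Median log2 fold changes without a position were 0.13 for LOC, 0.16 for Gm and 0.14 for Rik models and -0.09 for the others.

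Over the 109 LOC models more fold changes were above 0 than below. The log2 fold change was above 0 for 71 and below 0 for 38, with a median of 0.13, against -0.02 over all genes, but among mice numbered in the 25000s the split was 50 above and 57 below with a median of -0.07. With libraries rescaled to the same total it was 64 above and 45 below, with a median of 0.04 against -0.11 over all genes, and without the 4 mice that stood apart 64 of 108 were above 0.

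**Figure D3:**
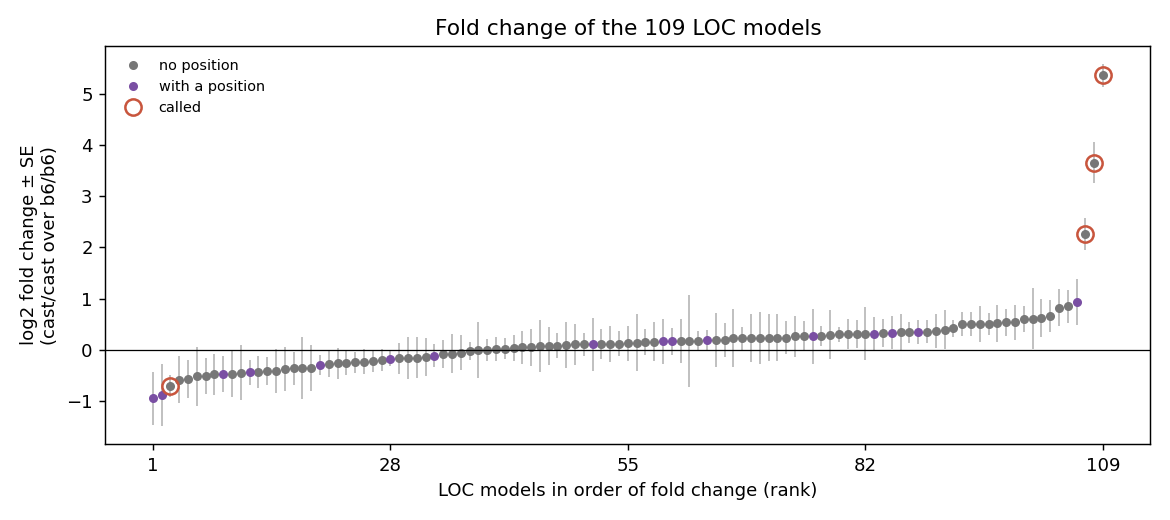
Log2 fold change (*cast/cast* over *b6/b6*, ± SE from limma, n = 12 each) of the 109 LOC models in rank order, with called models circled and models with a position in purple. The 3 called higher stand at 2.26, 3.66 and 5.36, away from the other 106, and no model with a position is circled.

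LOC models were weakly expressed as a set. Their median mean level was 24.5 normalized counts, against 150.6 over all genes, and 47 of them (43.1%) averaged under 20, against 14.3% of all genes. All 109 passed the minimum mean of 5 used for testing. In every mouse 59 of the 109 were above 3 tag hits, and 18 were at 0 in at least 1 mouse. Spread among mice of 1 genotype was larger than for other genes in the same range of level. The median log2 SD was 0.83 for the 41 models averaging 20 to 100 and 0.64 for the 3747 other genes of that range. From 6 to 20, the medians were 0.95 for 47 models and 0.85 for 1956 other genes. The models also lay lower within each range, with median levels of 35.95 against 48.06 and 10.5 against 11.58. The part of level in the spread was not tested.

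A single model, *LOC101056146*, held 45.1% of all LOC counts pooled over mice, and 8.72 to 69.1% in single mice. Its lowest, median and highest values were 2015, 10680 and 16620 in the *b6/b6* and 1256, 10500 and 16370 in the *cast/cast* mice, and it ranked 128 among all genes by mean level. No mouse lay between 7707 and 9690, with 6 *b6/b6* and 7 *cast/cast* mice above that gap and 6 and 5 below it. This gap was picked after the values were seen, and whether the mice form separate classes was not tested. The genotypes overlapped almost fully, with a log2 fold change of -0.37 ± 0.42 (SE, adjusted *P* = 0.805, limma). The level of *LOC101056146* varied with colony number in *b6/b6* mice: the 4 numbered under 25000 had 14870 to 16620 and the 5 with the highest numbers had 2015 to 7707. The 2 *cast/cast* mice numbered under 25000, both among the 4 that stood apart, had 1256 and 2548. Without those 4, the lowest and highest values were 2015 and 15550 for *b6/b6* and 2160 and 16370 for *cast/cast* mice, and the log2 fold change was 0.19, of the opposite sign and again not called (limma).

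The other 4 of the 5 most abundant models in *b6/b6* mice were not called either. *LOC101056101* averaged 2199 ± 857 in the *b6/b6* and 2848 ± 1134 in the *cast/cast* mice (SD, n = 12). *LOC100503186* averaged 1010.0 ± 420.0 and 1639 ± 906, with ranges of 224.0 to 1533 and 547.7 to 3320.0. Its log2 fold change of 0.66 (unadjusted *P* = 0.0467, limma) was 0.15 without the 4 mice that stood apart, which held both the lowest *b6/b6* and the highest *cast/cast* value. *LOC101055815* averaged 634.9 ± 365.8 and 616.7 ± 372.8, and here too those mice mattered, the log2 fold change being 0.05 with them and -0.57 without them (unadjusted *P* = 0.0502, limma). *LOC101056654* ran from 338.8 to 933.1 and from 525.8 to 946.6, with a log2 fold change of 0.42 ± 0.17 (unadjusted *P* = 0.0182, adjusted *P* = 0.549, limma).

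As a share of all normalized counts, the LOC models made up 0.107 to 0.308% per mouse in the *b6/b6* and 0.112 to 0.297% in the *cast/cast* mice. Without *LOC101056146* the mean shares were 0.106% ± 0.0228 and 0.123% ± 0.0223 (SD, n = 12), with ranges that overlapped (0.0755 to 0.142% and 0.0905 to 0.164%). Between 103 and 109 models were detected in each mouse.

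**Figure D4:**
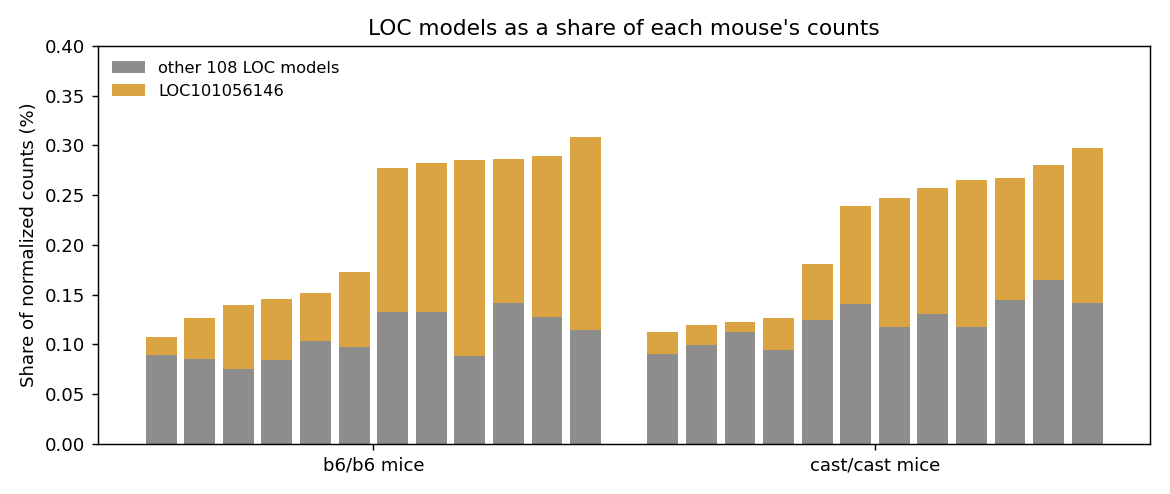
Share of each mouse's normalized counts (%) held by LOC models, 1 bar per mouse in order of the total within each genotype, split into *LOC101056146* (yellow) and the other 108 models (grey). The grey part runs from 0.0755 to 0.164% and the whole bar from 0.107 to 0.308%, and both genotypes hold mice at either end.

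*LOC329427* differed between single mice more than between genotypes. It is *Chn1os3*, at chr2:73596526-73616012 (GRCm38), a noncoding transcript whose span overlaps the end of *Chn1*, the gene of a Rac-regulating protein of neurons. In *b6/b6* mice its lowest, median and highest values were 0.904, 7.01 and 124.0, and in *cast/cast* mice 1.83, 3.65 and 9.40. Its 2 high values, 62.6 and 124.0, were in the 2 *b6/b6* mice that stood apart, and the other 10 reached 15.6. In these 2 mice *Chn1* was at 2769 and 2408, below the lowest value of the other 22 mice, 4756. They also had the highest *Hba-a1* (hemoglobin) counts of the 24 mice, 2615 and 771; the summed blood markers, 2 of the list of 6 being in the table, ran from 116.2 to 4929 in the *b6/b6* and 92.4 to 741.8 in the *cast/cast* mice. The same 2 mice had the lowest counts of *Rpl32*, a ribosomal protein gene, at 2260 and 1064, against 5395 or more in the others. The mouse with 124.0 also had the highest counts of *Gh* (pituitary, 466.6) and *Pmch* (hypothalamus, 22150). The part of blood or of these libraries in the *LOC329427* values was not tested. Whether the counting used strand is not given in the sources used here, so tags of the overlapping genes may not be separable.

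The call on *LOC329427* was lost without these mice. Its log2 fold change was -0.94 ± 0.52 (SE, unadjusted *P* = 0.0793, adjusted *P* = 0.623) with limma, and it was called lower in *cast/cast* by DESeq2 (-2.22, adjusted *P* = 0.0332) and by edgeR (-2.16, adjusted *P* = 0.18). Without the 4 mice that stood apart neither tool called it (-0.42, adjusted *P* = 0.787 with DESeq2, and -0.39, adjusted *P* = 0.783 with edgeR), and the limma value was -0.23. *LOC101056094* (*Gm21811*, a pseudogene on chromosome 8) was high in the same 2 *b6/b6* mice, at 34.6 and 66.3. In the other 10 it reached 7.66, and in *cast/cast* mice 8.50. It was not called (log2 fold change -0.87 ± 0.61, adjusted *P* = 0.68, limma). Without the 4 mice that stood apart its mean was below the minimum for limma, and edgeR gave a log2 fold change of 0.07.

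**Figure D5:**
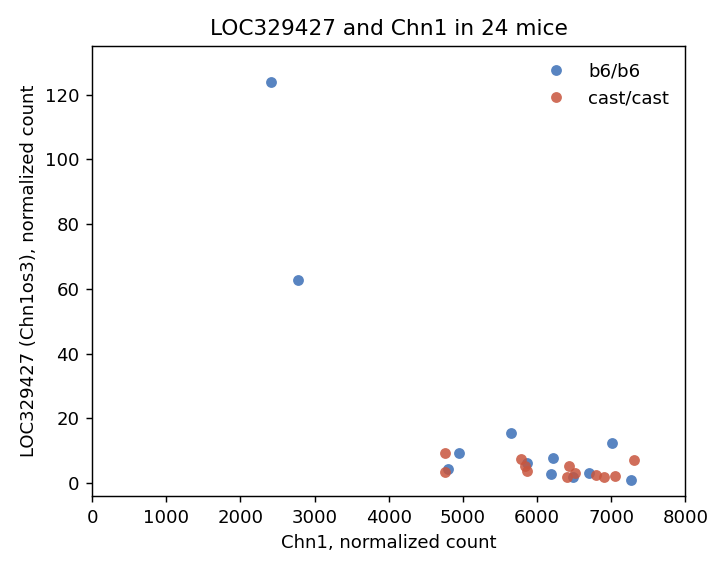
Normalized counts of *LOC329427* (*Chn1os3*, y axis) and *Chn1* (x axis) in each of 24 mice, with *b6/b6* in blue and *cast/cast* in red. The 2 *b6/b6* mice with 62.6 and 124.0 counts of *LOC329427* have 2769 and 2408 counts of *Chn1*, and the other 22 mice lie at 4756 or more.

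The tissue carried hypothalamic markers in every mouse. Of 15 listed markers 13 were in the table, all above 3 tag hits in every mouse, and their summed counts ran from 13550 to 31460 in the *b6/b6* and 6838 to 37380 in the *cast/cast* mice. *Sst* and *Otp* were not in the table. Summed markers of neighbouring tissue were lower and varied among mice, but covered fewer genes. These were 4 for choroid plexus, 2 of 4 for pituitary (*Prl* and *Tshb* were not in the table) and 3 for thalamus. Sums over unlike numbers of genes do not measure how much of each tissue was present. Sums over both genotypes ran from 69.0 to 542.4 for choroid plexus, 0 to 469.8 for pituitary and 164.7 to 861.8 for thalamus. The lowest pituitary sum was 0 in each genotype, and the thalamus marker *Tcf7l2* was called lower in *cast/cast* mice. Their part in the LOC values was not tested.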

How the data were processed

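SAGE-Seq libraries of 24 hypothalami, 1 per mouse, were grouped by the genotype in the labels. The authors aligned 27-base tags to RefSeq mRNA and GRCm38 with SOLiD SAGE software, and the deposited signal values are tag hits per gene scaled by each library's DESeq size factor. The authors' comparison columns (means, fold change, its log2, *P* and adjusted *P* from DESeq) were not used. Repeated rows of a gene were identical (19529 rows, 13998 genes). In every library 100% of values were whole multiples of 1 step (tolerance 0.02), which gave whole tag hits.

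Genes with a mean of at least 5 (all of them, the lowest being 6.03) entered a limma 3.58.1 fit of log2(normalized count + 1) on genotype alone, with a mean-variance trend in eBayes. The alternatives changed the pseudocount (0.5 or 5), the minimum mean (20 or none) or the library scaling, replaced limma by DESeq2 1.42.0 or the quasi-likelihood test of edgeR 4.0.16 (TMM or RLE) on the tag hits, or used the study number as covariate, only colony numbers in the 25000s, an adjusted *P* of at most 0.01, the fold from the log2 scale, or no minimum fold. Leaving out the 4 mice that stood apart, with limma, edgeR or DESeq2, was added after the data were seen. On simulated data for this comparison limma called 88.8%, edgeR 90.5% and DESeq2 92% of the changed genes. Floors of 3 tag hits cover counting error only, as tags carry no molecular identifiers.

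Positions missing from the table came from RefSeq (GRCm38.p6) by gene number. Tags (CATG and the 23 bases after it, at the 3′-most site) came from GENCODE M21 and were compared with the tags at every CATG of 141767 transcripts. Models named were *LOC641240*, *LOC674595*, *LOC101055787*, every called model, those in the CAST segment, the 5 most abundant in *b6/b6* mice and those nearest the fold threshold. *LOC329427*, *LOC101056094*, *LOC101056072* and *LOC100504872* were added after their values were seen. The members, the marker and id lists and the colony subset were chosen with earlier results of these data known.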

Additional observations from a re-analysis of the deposited data

How the results depend on the processing

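*LOC641240* was called higher under all 16 alternatives, and *LOC674595* and *LOC101055787* under each that tested them, with log2 fold changes of 3.18 to 8.48, 2.12 to 5.21 and 1.27 to 2.74. Not all of these were separate tests. With no minimum mean the fit was the main one again, as every gene had already passed. Dropping the minimum fold could not remove a call. The adjusted *P* and log2-scale rules were applied to the main fit too. With a minimum mean of 20 only 62 LOC models were tested and 1 was called higher, as the means of *LOC674595* and *LOC101055787* over all mice were below it. With the study number as a covariate 5 were called higher, *LOC100504872* and *LOC100861696* being added, and with DESeq2 4, *LOC100861696* being added; the cause was not tested. Without the 4 mice that stood apart, limma, edgeR (TMM) and DESeq2 each called 3 higher and 1 lower, the same models as with all mice and limma. The limma log2 fold change of *LOC100861696* was then 0.56 instead of 0.85, that of *LOC100504872* 0.35 instead of 0.83 and that of *LOC101056118* -0.03 instead of -0.58. *LOC628205* was called lower under 14 of the alternatives, including no minimum mean and no minimum fold, which could not remove the call. The count of lower models was 2 with edgeR under either normalization (*LOC329427* added), 3 with DESeq2 (*LOC101056118* added too), and 0 among mice numbered in the 25000s, where limma gave an unadjusted *P* of at most 0.05 to 1 lower model. It was also 0 with an adjusted *P* of at most 0.01. Among all genes, rescaling changed the calls from 66 higher and 142 lower to 43 and 187, and edgeR (TMM) gave 60 and 331. *LOC101055787* rests on 4 to 21 tag hits per *cast/cast* library, which limits the precision of its fold. No paired analysis was possible because the labels give the mice no replicate numbers, and the numbers used here only name different mice.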

Other observations

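Among the models not described above, *LOC100504872* moved almost in step with *Rpl32*, a ribosomal protein gene on another scale of abundance. The model averaged 70.4 normalized counts and *Rpl32* 8348, and in single mice the model stood at 0.307 to 1.04% of *Rpl32*. The ratio of means was 0.802% in the *b6/b6* and 0.873% in the *cast/cast* mice. Across the 24 mice, with each genotype centred on its own mean, the correlation of log2 values was 0.98, and it was 0.92 in the 20 mice left without those that stood apart. This pair was picked as the closest of all pairs of a LOC model and another gene, in libraries that share differences in depth and quality, and 32 of the 109 models had some gene at a correlation of at least 0.9. The values are a description of these libraries only.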
